A study of Rattus norvegicus with 24 samples.

Results

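Polycomb repressive complex 2 (PRC2) was followed through 8 of its genes in inner medulla of the kidney and in heart ventricle of rats. The 8 genes, taken from a list of symbols among the 36856 genes of the deposited count tables, were Ezh1, Ezh2, Eed, Suz12, Jarid2, Rbbp4, Rbbp7 and Phf19. The members were selected on the aldosterone comparison of these libraries, in which the level of Ezh1 gave one of the smallest p-values. Values of that comparison are therefore given as a description without a test, while the diet and tissue comparisons are tested.

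RNA sequencing covered 24 libraries, from 4 rats in each of 6 groups. Sprague-Dawley rats of 120 to 200 g, female per the labels, ate a synthetic diet for 7 days. In the aldosterone experiment, the inner medulla came from rats on 0.4% Na that carried an osmotic minipump releasing aldosterone at 12 µg per day, or from control rats on the same diet, for which the labels mention no pump. In the low-salt experiment, inner medulla and ventricle came from rats on 0.01 to 0.02% Na (low salt) or on 0.4% Na, called high salt in the sample titles and control in the protocol. No label names a transgene or an engineered allele, and none says whether the same rats gave both tissues. Each group held 2 rats of batch 1 (replicates 1 and 2) and 2 of batch 2 (replicates 3 and 4), and the labels do not say what a batch stands for.

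PRC2 is the enzyme complex that methylates lysine 27 of histone H3, a mark of repressed developmental genes. Its catalytic subunit is either EZH2, which is abundant in dividing cells, or EZH1, which prevails in resting and differentiated cells. EED reads the mark and stimulates the enzyme, SUZ12 holds the complex together, and RBBP4 and RBBP7 are histone chaperones that also belong to other chromatin complexes. JARID2 and PHF19 are accessory subunits that bring the complex to its sites and adjust its activity. EZH2 is transcribed under the control of E2F factors, which switch on genes for DNA replication when a cell enters the cycle.

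Libraries held 24299000 to 38319000 counts, and over the 24 libraries Ezh2 had 139 to 437 counts and Phf19 43 to 622, against 914 to 15862 for Ezh1. All 8 members passed the filter on low counts in every comparison. Although all rats are labelled female, Xist, the RNA of the inactive X chromosome, had a median of 335 CPM and a maximum of 451 CPM over the aldosterone experiment (8 libraries), and was at 0 to 0.0932 CPM over the low-salt experiment (16 libraries). In the same sets, 4 Y-linked genes summed to 0.034 to 0.32 CPM and to 148 to 276 CPM. The values of the 16 low-salt libraries thus go against their female label, and those of the aldosterone experiment do not. Each test below holds libraries of 1 pattern only, while the ratios set side by side over all 6 groups span both patterns, and their part in those ratios was not tested. The summed level of 5 collecting duct markers was 10100 to 16500 CPM in the 16 inner medulla libraries and 0.164 to 37.9 CPM in the 8 ventricle libraries, and 6 cardiomyocyte markers summed to 1.17 to 5.6 CPM in inner medulla and to 61500 to 80600 CPM in ventricle. High-salt replicate 2 of the ventricle stood apart, with 37.9 CPM of collecting duct markers and 103 CPM of thick ascending limb markers, against at most 3.58 and 10.1 CPM in the other 7 ventricle libraries. Proximal tubule markers were also present in ventricle, at 14.8 to 61.8 CPM in replicates 1 and 2 of both diets, highest in low-salt replicate 2, and at 0.323 to 1.08 CPM in replicates 3 and 4. In these bulk samples, fewer cells of a type and less RNA per cell cannot be told apart.

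Promoter windows of 300 bases, 250 before to 50 after the transcription start (RefSeq, GRCr8), were matched for 7 of the 8 members, all but Ezh1. They were searched on both strands for 2 forms of the E2F site, TTTGGCGC and TTTCCCGC, and for 2 forms of the cell cycle homology region, TTTGAA and TTCGAA. The E2F letters occurred in 3 windows, those of Ezh2, Suz12 and Phf19, which are shown with these letters in capitals because Ezh2 differed between aldosterone and control rats without overlap, while Suz12 and Phf19 overlapped. The window of Ezh2 lies at chr4:77687134-77687433 on the minus strand, that of Suz12 at chr10:65464719-65465018 on the plus strand and that of Phf19 at chr3:38593805-38594104 on the minus strand.
Ezh2: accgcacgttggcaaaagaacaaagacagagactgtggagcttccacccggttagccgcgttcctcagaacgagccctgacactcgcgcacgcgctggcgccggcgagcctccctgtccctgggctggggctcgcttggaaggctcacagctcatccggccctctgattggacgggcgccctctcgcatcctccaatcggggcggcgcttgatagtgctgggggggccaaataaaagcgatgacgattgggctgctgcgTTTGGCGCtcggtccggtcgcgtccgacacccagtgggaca
Suz12: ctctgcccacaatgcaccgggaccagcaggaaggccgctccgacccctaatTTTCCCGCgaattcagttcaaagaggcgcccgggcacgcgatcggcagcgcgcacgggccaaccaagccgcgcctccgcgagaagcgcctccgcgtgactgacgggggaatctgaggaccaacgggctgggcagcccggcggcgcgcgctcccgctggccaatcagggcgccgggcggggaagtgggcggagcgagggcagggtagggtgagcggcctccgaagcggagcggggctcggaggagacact
Phf19: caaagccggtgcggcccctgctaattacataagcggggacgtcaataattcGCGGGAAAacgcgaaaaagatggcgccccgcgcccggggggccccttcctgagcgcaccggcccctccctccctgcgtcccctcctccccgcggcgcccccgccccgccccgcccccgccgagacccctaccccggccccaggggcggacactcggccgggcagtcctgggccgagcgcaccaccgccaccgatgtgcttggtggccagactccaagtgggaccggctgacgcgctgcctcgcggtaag

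In Ezh2 the E2F letters TTTGGCGC began at base 10, counted from the start of transcription as base 1. In Suz12 and Phf19 the letters TTTCCCGC began at base -199, on the plus strand of the Suz12 window and on the minus strand of the Phf19 window. Of 33469 promoters of the same length, 0.493% held TTTGGCGC, 0.974% TTTCCCGC and 1.45% either of them. The Suz12 window also held TTTGAA on the minus strand, as did 18.3% of all promoters on either strand, without overlap with the E2F letters, and TTCGAA (1.69% of promoters) was in none of the 7. The windows of Eed, Jarid2, Rbbp4 and Rbbp7 held none of the 4 motifs.

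With aldosterone, Ezh2 was higher and Ezh1 lower than in controls in every rat. The other 6 members overlapped with their controls, with Phf19 at 12.1 ± 4.27 CPM in the 4 aldosterone rats and 15.4 ± 4.12 CPM in the 4 controls (mean ± SD) and the rest at log2 fold changes of -0.05 to 0.08. Levels are given as CPM, counts relative to the effective library size, normalised within each table. Ezh2, the methyltransferase of dividing cells, stood at 12.9, 11.1, 14.1 and 16.5 CPM in the 4 aldosterone rats, against 6.52, 7.21, 8.3 and 7.01 CPM in the 4 controls. The lowest aldosterone value lay above the highest control value, and the log2 fold change was 0.90 ± 0.13 (SE of the fit), 1.87-fold. It was 0.81 in batch 1 and 1.0 in batch 2. Ezh1, the methyltransferase of resting cells, stood at 226, 239, 225 and 223 CPM with aldosterone, against 286, 309, 314 and 328 CPM in controls. The groups again did not overlap, and Ezh1 had a log2 fold change of -0.44 ± 0.07 (0.738-fold), with -0.35 in batch 1 and -0.52 in batch 2.

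**Figure D1:**
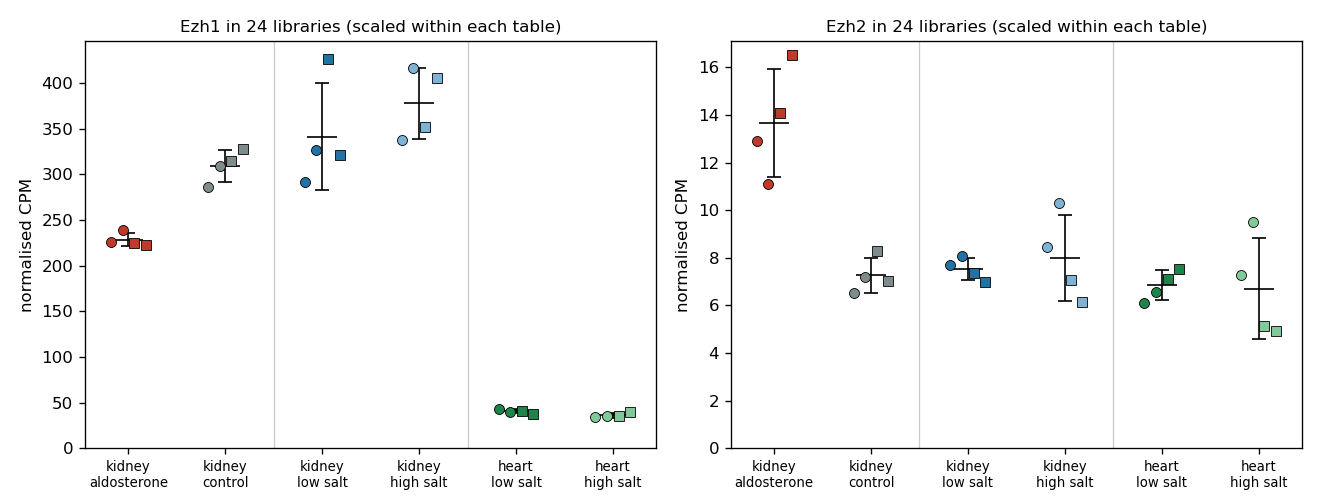
Normalised CPM of Ezh1 (left) and Ezh2 (right) in each of the 24 libraries, by group, with the mean and SD over 4 rats as bars, circles for batch 1 and squares for batch 2. Values were scaled within each of the 3 tables divided by the grey lines. The 4 aldosterone rats lie between 11.1 and 16.5 CPM for Ezh2 and between 223 and 239 CPM for Ezh1, apart from the controls on both.

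Because both genes were read in the same library, their ratio needs no scaling between libraries. It compares counts and is not corrected for transcript length, so only its change between libraries can be read. Ezh2 had 5.74, 4.65, 6.28 and 7.42 counts per 100 Ezh1 counts with aldosterone, against 2.27, 2.33, 2.65 and 2.13 in controls. Every aldosterone rat lay above every control, and the mean was 6.02 ± 1.15 with aldosterone and 2.35 ± 0.218 in controls (SD, n = 4 each). The difference of the mean log2 ratios was 1.34, 2.54-fold, and it was 1.17 in batch 1 and 1.52 in batch 2. Leaving out each rat in turn gave 1.24 to 1.46.

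**Figure D2:**
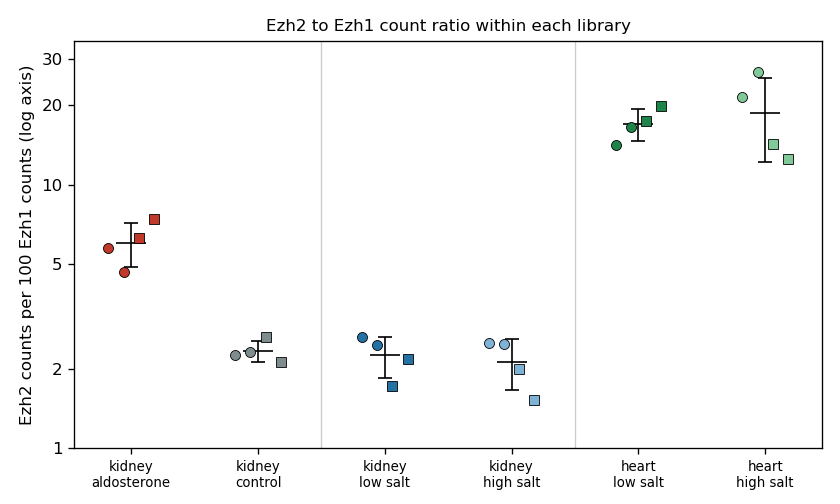
Ezh2 counts per 100 Ezh1 counts in each library on a log axis, by group, with the mean and SD over 4 rats as bars, circles for batch 1 and squares for batch 2. Aldosterone rats (4.65 to 7.42) lie above the 3 other kidney groups (1.52 to 2.65), and ventricle (12.5 to 26.7) above all kidney groups.

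Of the core subunits, Eed, the reader of the mark, ranged from 33.8 to 38.4 CPM with aldosterone and from 35 to 38.4 CPM in controls (log2 fold change -0.05 ± 0.07). Suz12, the scaffold, ranged from 80.2 to 93.9 CPM with aldosterone and from 87.8 to 92.0 CPM in controls (-0.05 ± 0.06). The histone chaperone Rbbp4 ranged from 110 to 124 CPM with aldosterone and from 112 to 127 CPM in controls (-0.02 ± 0.06). Its paralog Rbbp7 ranged from 211 to 284 CPM with aldosterone and from 204 to 272 CPM in controls (0.08 ± 0.12). Among the accessory subunits, Jarid2 had a log2 fold change of -0.01 ± 0.07. Phf19 stood at 9.61, 9.15, 11.4 and 18.4 CPM with aldosterone, against 13.3, 11.3, 20.8 and 16.2 CPM in controls (-0.35 ± 0.17), with overlapping groups and a spread wider than the difference. So 2 of the 8 members, the catalytic pair, had no overlap between the groups, where 5.09% of all genes tested had none. The comparison chose the members, so nothing is read from that share.

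Over all 17671 genes tested, none passed an adjusted p of 0.05 with aldosterone by edgeR (0.0%), 1750 had an unadjusted p under 0.05, and DESeq2 called 373. The change of Ezh2 stood beside that of proliferation genes. All 36 genes of the cell cycle list had log2 fold changes above 0, with 1.37 as their median, against 8991 of 17671 genes and a median of 0.00 over all genes. This list and the other lists were chosen with earlier results of these data known, so their shares are a description. Mki67, the antigen of proliferating cells, stood at 37.3, 30.6, 32.5 and 51.7 CPM with aldosterone, against 4.77, 11.5, 12.1 and 18.8 CPM in controls (1.75 ± 0.31). The mitotic kinase Cdk1 stood at 15.7, 10.8, 14.7 and 19.9 CPM with aldosterone, against 4.04, 5.37, 4.32 and 6.63 CPM in controls (1.58 ± 0.21). Neither gene's groups overlapped.

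The largest log2 fold changes of the cell cycle list belonged to the cyclin Ccnb2 (2.01 ± 0.36), the kinetochore protein Cenpf (1.96 ± 0.37) and the kinesin Kif20a (1.82 ± 0.39). In the E2F and RB families, 7 of 13 genes were positive with a median of 0.01, and the largest values were those of E2f8 (1.64 ± 0.28), E2f1 (1.27 ± 0.33) and E2f7 (1.17 ± 0.45), activators or repressors of replication genes that are themselves made as cells enter the cycle. Of the cell cycle inhibitors known as Polycomb targets, 3 of 5 were positive with a median of 0.26: Cdkn2c had 1.18 ± 0.18, Cdkn1c 0.37 ± 0.28 and Cdkn2b -0.50 ± 0.22. All 7 genes of DNA methylation and demethylation were positive, with a median of 0.22, led by Uhrf1, which brings the maintenance methyltransferase to newly copied DNA (1.98 ± 0.37), with Dnmt1 at 0.27 ± 0.06 and Tet2 at 0.23 ± 0.16. Of the partners of Rbbp4 and Rbbp7 in other complexes, 11 of 18 were positive with a median of 0.02. Their largest values were those of Chaf1a (0.73 ± 0.20) and Chaf1b (0.61 ± 0.17), the large subunits of the replication-linked histone chaperone CAF-1, and Mta3 of the NuRD deacetylase complex had -0.15 ± 0.10.

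In the rest of the Polycomb system and the lists beside it, medians lay between -0.10 and 0.18, and single genes lay further from 0. Of the other PRC2 accessory subunits, 2 of 6 tested were positive with a median of -0.07, where Phf1 had -0.23 ± 0.13, Mtf2 0.13 ± 0.11 and Lcorl -0.10 ± 0.08. Of the 23 genes of PRC1, the complex that ubiquitylates histone H2A, 10 were positive with a median of -0.01. The values furthest from 0 were those of Bmi1 (-0.23 ± 0.08), Kdm2b (0.19 ± 0.08) and Phc2 (-0.17 ± 0.09). The demethylases that remove the PRC2 mark, Kdm6a (-0.03 ± 0.07) and Kdm6b (-0.05 ± 0.07), were within an SE of 0. The H2A deubiquitinase complex had 3 of 5 positive (median 0.09), with Mbd5 at -0.23 ± 0.08, Asxl1 at 0.17 ± 0.08 and Mbd6 at 0.14 ± 0.14. The H3K4 methyltransferase complexes, which oppose Polycomb, had 4 of 14 positive (median -0.08), with Kmt2c at -0.19 ± 0.07, Setd1b at -0.15 ± 0.10 and Ash2l at -0.14 ± 0.07. Other histone lysine methyltransferases had 5 of 18 positive (median -0.06), with Setdb2 at -0.27 ± 0.15, Kmt5b at -0.21 ± 0.07 and Ehmt1 at -0.18 ± 0.07. Of the Hox genes, classical Polycomb targets, 19 of 32 were positive (median 0.18), with Hoxc10 at 0.73 ± 0.26, Hoxa2 at 0.59 ± 0.19 and Hoxd11 at 0.48 ± 0.43. Of the other developmental regulators known as targets, 7 of 18 were positive (median -0.10), with Meis1 at 0.86 ± 0.39, Emx1 at 0.76 ± 0.77 and Tcf21 at 0.58 ± 0.48.

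Several lists of cell type markers were positive alongside, but only the erythroid sums did not overlap between the groups. All 5 fibroblast markers tested were positive (median 0.94; summed CPM 147 to 412 with aldosterone and 101 to 314 in controls), as were all 4 of the thick ascending limb (0.75; 2090 to 4650 with aldosterone and 949 to 2390 in controls), all 6 erythroid (0.83; 2520 to 3460 with aldosterone and 1720 to 2200 in controls), all 5 urothelial (0.50) and all 9 leukocyte markers (0.33; summed CPM with a minimum of 149 and a median of 175 with aldosterone, and of 108 and 189 in controls). No marker of these lists was at 0 throughout either group. Only 2 of 5 collecting duct markers were positive (median -0.14). The part of these differences in the values of Ezh1 and Ezh2 was not tested.

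**Figure D3:**
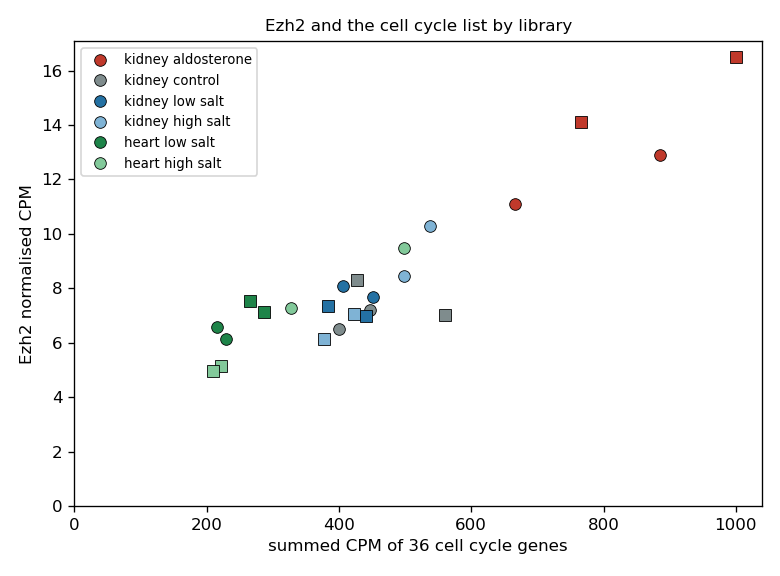
Normalised CPM of Ezh2 against the summed CPM of 36 cell cycle genes in each of the 24 libraries, coloured by group, circles for batch 1 and squares for batch 2. The 4 aldosterone libraries hold both the highest sums (666 to 1000 CPM) and the highest Ezh2 levels (11.1 to 16.5 CPM), and Ezh2 is scaled within each table.

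Low salt gave no change of the complex in the inner medulla that passed the test: 0 of the 8 members had an adjusted p under 0.05, where 2.46% of all genes tested did (454 of 18449). Ezh1 stood at 291, 327, 426 and 321 CPM on low salt, against 337, 416, 352 and 405 CPM on high salt. These values overlapped, and the log2 fold change was -0.15 with a 95% interval of -0.43 to 0.13 (edgeR adjusted p 0.53). Ezh2 stood at 7.68, 8.07, 7.36 and 7.0 CPM on low salt, against 8.47, 10.3, 7.05 and 6.15 CPM on high salt. The values overlapped as well, with a log2 fold change of -0.07 and an interval of -0.39 to 0.25 (edgeR adjusted p 0.829). The interval of Ezh2 lay below the 0.90 measured with aldosterone, which had an interval of 0.60 to 1.21. That value comes from the comparison that chose the members and from libraries of the other Xist pattern. The difference between the responses was not tested. With the median of all genes at 0.00, the members' median was 0.02, and 6 of 8 were positive.

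Ezh2 had 2.64, 2.47, 1.73 and 2.18 counts per 100 Ezh1 counts on low salt, against 2.51, 2.49, 2.0 and 1.52 on high salt. The difference of the mean log2 ratios was 0.09, 0.03 in batch 1 and 0.15 in batch 2, with a two-sided exact permutation p of 0.714 (4 against 4, smallest possible p 0.0286). Low-salt rats averaged 2.26 ± 0.401 and high-salt rats 2.13 ± 0.469 (SD, n = 4 each), so the difference was smaller than the spread within either group.

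Rbbp7 was the member with the smallest p in this comparison. It stood at 263, 225, 217 and 218 CPM on low salt, against 217, 198, 175 and 204 CPM on high salt. The lowest low-salt value lay just above the highest high-salt value, so the groups did not overlap, as for 1 of 8 members and 11.4% of all genes, and the log2 fold change was 0.21 ± 0.08 (edgeR p 0.0222, adjusted p 0.172). The other chaperone, Rbbp4, had 0.02 ± 0.07, Suz12 0.02 ± 0.06 and Eed 0.01 ± 0.08. Of the accessory subunits, Jarid2 had 0.18 ± 0.12 and Phf19 0.14 ± 0.11, and their groups overlapped.

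**Figure D4:**
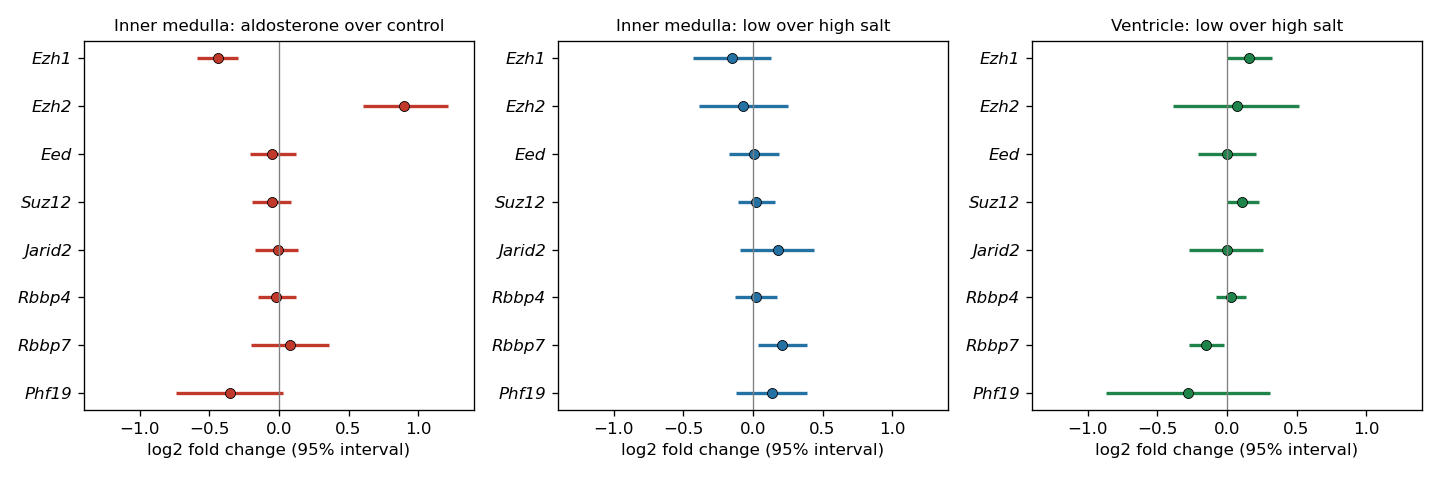
Log2 fold changes of the 8 members with 95% intervals from edgeR, for aldosterone over control in inner medulla (left), low over high salt in inner medulla (middle) and low over high salt in ventricle (right). With aldosterone, the comparison that chose the members, the intervals of Ezh2 (0.90) and Ezh1 (-0.44) leave out 0 and that of Phf19 (-0.35) includes it, and no member passed the adjusted threshold in the diet comparisons.

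Around the complex, 5 of 198 genes tested in 13 other lists passed on low salt in the inner medulla (2.53%), close to the 2.46% of all genes. Dnmt3a, which methylates DNA anew, rose by 0.49 ± 0.09 on the log2 scale, with 114 ± 8.27 CPM on low salt, against 81.4 ± 10.7 CPM on high salt (edgeR adjusted p 0.0434), 1 of 7 genes of DNA methylation. Mbd3, a NuRD subunit, fell by 0.27 on that scale (adjusted p 0.043), 1 of 18 partners of Rbbp4 and Rbbp7. Kmt5a, which methylates lysine 20 of histone H4, fell by 0.54 (adjusted p 0.0475), 1 of 18 other lysine methyltransferases. Cdkn1c, a cyclin-dependent kinase inhibitor and Polycomb target, fell to 49.2 ± 8.72 CPM on low salt, against 80.9 ± 15.2 CPM on high salt (log2 -0.71 ± 0.09, adjusted p 0.0177), 1 of 5 inhibitors. Tyms, which makes thymidylate for DNA synthesis, rose by 0.49 ± 0.09 (adjusted p 0.0373), 1 of 36 cell cycle genes. When 1 library at a time was left out, Dnmt3a, Mbd3 and Tyms passed in none of 8 fits, Kmt5a in 1 and Cdkn1c in 4, at adjusted p-values of 0.0273 to 0.131 over these genes. Without low-salt replicate 3, the genes called fell to 2 in all.

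None of the genes of PRC1 (11 of 23 positive, median 0.00), of the other accessory subunits (5 of 6, 0.10), the H3K27 demethylases (2 of 2, 0.12), the deubiquitinase (2 of 5, -0.13), the H3K4 complexes (7 of 14, -0.01), the E2F and RB families (5 of 13, -0.08), the Hox genes (8 of 32, -0.13) or the other developmental targets (12 of 19, 0.03) passed by edgeR. Of the cell cycle list, 5 of 36 were positive with a median of -0.26. Mki67 stood at 9.24, 5.45, 5.4 and 8.31 CPM on low salt, against 17.1, 18.0, 8.38 and 2.98 CPM on high salt (log2 -0.50 ± 0.42, adjusted p 0.552), and Cdk1 had -0.19 ± 0.34 (adjusted p 0.807). All 6 erythroid markers (median 0.89) and all 5 proximal tubule markers (0.75) were positive, and 1 of 5 urothelial markers (-0.83); none passed. The collecting duct urea transporter Slc14a2 fell by 0.81 on the log2 scale (adjusted p 0.0207) and the endothelial marker Emcn by 0.75 (adjusted p 0.0319), and with 1 library left out they passed in 5 and 3 of 8 fits. Their part in the members' values was not tested.

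In the ventricle, low salt likewise moved none of the 8 members past an adjusted p of 0.05, with 0.0517% of all genes called (8 of 15473). Suz12 stood at 47.7, 47.8, 50.6 and 49.7 CPM on low salt, against 45.6, 43.4, 44.8 and 47.4 CPM on high salt. The diets did not overlap, as for 1 of 8 members and 4.72% of all genes, and the log2 fold change was 0.11 ± 0.05 (edgeR adjusted p 0.481). Ezh1 stood at 43.2, 39.7, 40.8 and 38 CPM on low salt, against 33.9, 35.5, 35.9 and 39.6 CPM on high salt. Only high-salt replicate 4 reached into the low-salt values, and the log2 fold change was 0.16 ± 0.07 (edgeR p 0.0498, adjusted p 0.47). Rbbp7 stood at 156, 146, 159 and 161 CPM on low salt, against 156, 164, 183 and 186 CPM on high salt (-0.15 ± 0.05, edgeR p 0.0242, adjusted p 0.392).

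Ezh2 stood at 6.12, 6.57, 7.13 and 7.55 CPM on low salt, against 7.26, 9.49, 5.15 and 4.95 CPM on high salt. The low-salt values lay inside the range of the high-salt values, which fell into the batches, and the log2 fold change was 0.07 with an interval of -0.39 to 0.52 (edgeR adjusted p 0.928). In batch 1 it was -0.40 and in batch 2 it was 0.54. Phf19 was the least abundant member here, at 1.71, 2.25, 1.55 and 2.03 CPM on low salt, against 2.08, 3.64, 2.03 and 1.6 CPM on high salt (-0.28 ± 0.26). Rbbp4 had 0.03 ± 0.05, Eed 0.00 ± 0.09 and Jarid2 0.00 ± 0.12 on the log2 scale.

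Ezh2 had 14.2, 16.6, 17.5 and 19.9 counts per 100 Ezh1 counts on low salt, against 21.5, 26.7, 14.3 and 12.5 on high salt. The difference of the mean log2 ratios was -0.08 (two-sided exact permutation p 0.771, 4 against 4), and it was -0.64 in batch 1 and 0.48 in batch 2, so the diets differed in opposite directions in the batches. High-salt replicate 2, the ventricle library highest in collecting duct and thick ascending limb markers, held the highest ratio, and without it the difference was 0.11 (exact permutation p 0.657).

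Proliferation genes followed the same split. Mki67 stood at 5.17, 5.13, 6.95 and 7.09 CPM on low salt, against 17.8, 26.0, 3.35 and 2.07 CPM on high salt (log2 -0.44 ± 0.68, edgeR adjusted p 0.848), and Cdk1 at 1.63, 1.62, 2.12 and 2.36 CPM on low salt, against 6.3, 9.71, 0.93 and 0.855 CPM on high salt (-0.59 ± 0.71, adjusted p 0.797). High-salt replicates 1 and 2 were thus the highest libraries for both genes and replicates 3 and 4 the lowest. The 36 cell cycle genes summed to 216 to 287 CPM on low salt, against 327, 498, 222 and 209 CPM on high salt, and 2 of 36 were positive with a median of -0.43. No gene of the other chromatin lists passed by edgeR. Of those with at least 10 genes tested, PRC1 had 15 of 23 positive (median 0.03), the partners of Rbbp4 and Rbbp7 9 of 18 (-0.02), the other lysine methyltransferases 8 of 18 (-0.01), the H3K4 complexes 7 of 14 (0.00), the E2F and RB families 5 of 12 (-0.10) and the developmental targets 7 of 17 (-0.06). None of the 6 fibroblast markers was positive (median -0.32), while all 6 erythroid (1.12) and all 5 proximal tubule markers (0.64) were, and their part in the members' values was not tested.

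The low-salt response was also compared between the tissues in 1 model over 16 libraries. None of the 8 members passed (0.83% of all genes did, 161 of 19408). Rbbp7 came nearest: its log2 response of 0.21 in inner medulla and -0.15 in ventricle differed by 0.37 ± 0.10, with a 95% interval of 0.16 to 0.57 (edgeR p 0.002, adjusted p 0.0938), and DESeq2 called this difference (0.36, adjusted p 0.0166). Ezh1 differed by -0.31 ± 0.15 (edgeR adjusted p 0.376), from a response of -0.15 in inner medulla and 0.16 in ventricle. The difference for Ezh2 was -0.13, with an interval of -0.67 to 0.42 (adjusted p 0.884). Those of Phf19 (0.43 ± 0.27), Jarid2 (0.19 ± 0.18), Suz12 (-0.08 ± 0.08), Eed (0.02 ± 0.12) and Rbbp4 (-0.01 ± 0.08) had adjusted p-values of 0.514 to 0.984.

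On a common scale, the inner medulla held far more Ezh1 than the ventricle, more Phf19, and less Rbbp7, Rbbp4, Eed and Ezh2. High-salt libraries of both tissues were fitted together, so tissue and table cannot be told apart. The labels do not say that a batch number stands for the same batch in both tables. Of the 8 members 6 passed, 2 higher and 4 lower in inner medulla, where 77.8% of all genes passed, 41.1% higher and 36.7% lower. The members' share is close to that background, and the median log2 fold change was -0.21 over the members and 0.13 over all genes. The levels in this comparison are CPM on a scale common to both tables, set by TMM, and the lower levels depend on it. Relative to library totals, the 8 members summed to 839 to 930 CPM in inner medulla and 362 to 418 CPM in ventricle. Scaled within each table, the 4 members called lower had higher means in inner medulla. These were 199 against 172 CPM for Rbbp7, 117 against 80.8 for Rbbp4, 34.1 against 22.2 for Eed and 8.0 against 6.71 for Ezh2.

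Ezh1 stood at 246, 305, 254 and 298 CPM in inner medulla, against 46.5, 48.7, 49.5 and 54.9 CPM in ventricle. The tissues lay far apart in every library, with a log2 fold change of 2.47 ± 0.10, 5.52-fold (edgeR adjusted p 2.19e-08). Phf19 stood at 8.85, 8.81, 9.52 and 8.47 CPM in inner medulla, against 2.85, 4.99, 2.79 and 2.22 CPM in ventricle, 2.76-fold (1.47 ± 0.24, adjusted p 0.000398). Both genes kept their call in all 8 fits that left out 1 library.

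Ezh2 stood at 6.18, 7.56, 5.09 and 4.53 CPM in inner medulla, against 9.98, 13.0, 7.1 and 6.86 CPM in ventricle. The tissues overlapped when the batches were pooled and not within either batch number, and the log2 fold change was -0.66 ± 0.25 (edgeR adjusted p 0.0357). The call of Ezh2 was lost with upper quartile scaling (-0.48, adjusted p 0.115), without ventricle replicate 1 (-0.63, adjusted p 0.0774) or replicate 2 (-0.46, adjusted p 0.107), and without inner medulla replicate 1 (-0.68), 3 (-0.60) or 4 (-0.55), at adjusted p-values of 0.0609 to 0.0916.

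Of the remaining core subunits, Rbbp7 stood at 159, 145, 127 and 151 CPM in inner medulla, against 214, 225, 253 and 258 CPM in ventricle (log2 -0.71 ± 0.10, edgeR adjusted p 9.78e-05). Rbbp4 stood at 78.2, 95, 83.2 and 85.7 CPM in inner medulla, against 105, 107, 114 and 120 CPM in ventricle (-0.38 ± 0.08, adjusted p 0.00195). Both chaperones were lower in inner medulla without overlap. Eed ranged from 23.4 to 26.0 CPM in inner medulla and from 26.5 to 34.3 CPM in ventricle (-0.30 ± 0.10, adjusted p 0.0168). Suz12 had -0.12 ± 0.07 (adjusted p 0.133) and Jarid2 0.15 ± 0.14 (adjusted p 0.34), and neither passed. Upper quartile scaling moved the median of all genes to 0.31, from which Eed at -0.11 (adjusted p 0.253) no longer passed, Jarid2 at 0.34 (adjusted p 0.0465) did, and Suz12 turned to 0.06.

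**Figure D5:**
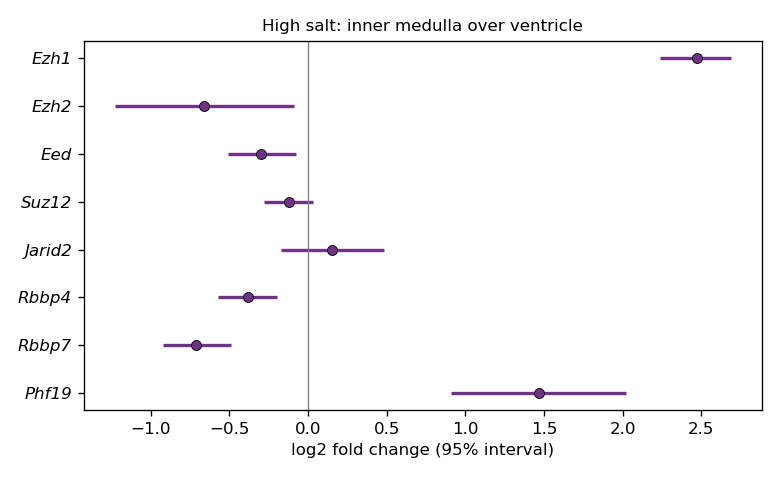
Log2 fold changes of the 8 members with 95% intervals from edgeR on a TMM scale common to both tables, inner medulla over ventricle on high salt. Ezh1 (2.47) and Phf19 (1.47) lie to the right of 0, Rbbp7 (-0.71), Ezh2 (-0.66), Rbbp4 (-0.38) and Eed (-0.30) to its left, while the direction of Suz12 (-0.12) turns with upper quartile scaling.

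The Ezh2 to Ezh1 ratio also differed between the tissues, with the larger part from Ezh1 (log2 2.47 ± 0.10) and the smaller from Ezh2 (-0.66 ± 0.25). On high salt it was 2.13 ± 0.469 Ezh2 per 100 Ezh1 counts in inner medulla and 18.7 ± 6.58 in ventricle (SD, n = 4 each). The difference of the mean log2 ratios was -3.10, -3.26 between the libraries numbered batch 1 and -2.94 between those numbered batch 2, with a two-sided exact permutation p of 0.0286, the smallest this design can give. The exact permutation p was 0.0556 with labels permuted within batch numbers and 0.125 with the replicate number as a block, each above the threshold and the smallest its scheme can give. Leaving out each library in turn gave -3.27 to -2.91. Over the 6 groups the mean ratio, from high to low, was 18.7 in ventricle on high salt, 17.0 ± 2.35 in ventricle on low salt, 6.02 with aldosterone, 2.35 in its controls, 2.26 in inner medulla on low salt and 2.13 on high salt. Neighbours in this order overlapped within the ventricle and among the last 3 groups, and the aldosterone group overlapped with no other.

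In the 13 other lists, 134 of 202 genes tested passed (66.3%), 88 higher in inner medulla, 31 of them Hox genes, and 46 lower. Of all genes, 77.8% passed, 41.1% higher and 36.7% lower. The share of the lists lay below that background, so their counts are a description. The other Polycomb genes stood on both sides. Of the accessory subunits, 3 were higher in inner medulla, Phf1 (log2 1.23 ± 0.11), Lcorl (0.65 ± 0.13) and Aebp2 (0.31 ± 0.07), and Epop was lower (-2.34 ± 0.28), of 6 tested; Ezhip, the inhibitor of PRC2, was at 0 in every library. Of the 23 PRC1 genes, 9 were higher and 7 lower. Pcgf2 (1.61 ± 0.13), L3mbtl2 (1.44 ± 0.08) and Rybp (1.05 ± 0.09) had the smallest p-values among those higher, and Pcgf5 (-1.66 ± 0.08), Scmh1 (-1.38 ± 0.09) and Yaf2 (-1.16 ± 0.07) among those lower. Rybp and Yaf2, paralogs that take the same place in variant PRC1, thus stood on opposite sides. Neither demethylase passed (2 of 2 positive, median 0.18), while the deubiquitinase had 2 higher and 2 lower, with its catalytic subunit Bap1 at -1.04 ± 0.07.

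Among the partners of Rbbp4 and Rbbp7, 8 were higher and 8 lower of 18. The deacetylases were split, with Hdac1 at 1.39 ± 0.07 and Hdac2 at -1.12 ± 0.07, as were the MTA subunits of NuRD, with Mta3 higher at 108 ± 4.5 CPM in inner medulla and 23.6 ± 2.65 CPM in ventricle, and Mta1 at -1.14 ± 0.12, and the remodeller Chd3 was at 3.04 ± 0.15. The H3K4 complexes had 8 higher and 2 lower of 14 (Kmt2b 0.97 ± 0.10, Kmt2a 0.82 ± 0.10), other lysine methyltransferases 7 higher and 2 lower of 18 (Smyd2 -3.10 ± 0.09, Setdb1 1.03 ± 0.10), and DNA methylation 2 higher and 2 lower of 7 (Tet1 -2.37 ± 0.18, Dnmt1 0.53 ± 0.11). In the E2F and RB families 3 were higher and 4 lower of 13, with the repressor E2f6, a partner of variant PRC1, at 23.6 ± 2.65 CPM in inner medulla and 260 ± 35.4 CPM in ventricle (-3.47 ± 0.13, edgeR adjusted p 1.45e-08). In the cell cycle list 1 was higher (Mcm7, 0.56 ± 0.14) and 5 lower of 36, with Tyms at -1.68 ± 0.12.

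Of these 13 lists, the Hox genes, known Polycomb targets, had the median furthest from 0. All 31 Hox genes tested were higher in inner medulla, with a median of 6.20, and the 39 Hox genes summed to 1070 to 1220 CPM in inner medulla and to 2.79 to 17.2 CPM in ventricle on high salt. Under the same filter on low counts, 5 of the 39 passed in the ventricle diet comparison and 32 in that of inner medulla. Most of the 31 thus entered this fit through inner medulla, so nothing is read from their shared direction or median. Hoxb7 stood at 79.5 ± 3.35 CPM in inner medulla and 0.655 ± 0.251 CPM in ventricle (adjusted p 2.55e-09). Of the cell cycle inhibitors, Cdkn2b (6.32 ± 0.27), Cdkn1c (3.47 ± 0.22) and Cdkn1b (1.0 ± 0.09) were higher, and Cdkn1a (-2.34 ± 0.40) and Cdkn2c (-1.31 ± 0.40) lower, of 5 tested. The developmental regulators had 11 higher and 11 lower of 24. Foxa1, Tbx3 and Gata2 were among those higher, with Tbx3 at 160 ± 33.3 CPM in inner medulla and 9.95 ± 0.489 CPM in ventricle, and the cardiac factors Hand2, Tbx20 and Gata6 among those lower, with Gata6 at 0.605 ± 0.203 CPM in inner medulla and 122 ± 12.4 CPM in ventricle.

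Across the 16 inner medulla libraries, each table centred on its own mean, the log2 CPM of Ezh1 and of Ezh2 were inversely related (Pearson r -0.63). The libraries share the treatment groups, so the values are a description. For this pair r was not computed within each experiment, and it includes the aldosterone comparison that chose the members. No relation outside that comparison is read from it. In the low-salt experiment, high-salt replicates 2 and 4 had the highest and lowest Ezh2 (10.3 and 6.15 CPM). Their Ezh1 levels were similar, at 416 and 405 CPM. Low-salt replicates 3 and 1 had the highest and lowest Ezh1 (426 and 291 CPM), with Ezh2 at 7.36 and 7.68 CPM. Of 15139 genes, those most like Ezh2 outside the members were Fsbp (r 0.942), whose human counterpart overlaps RAD54B so that its counts are uncertain, Pclaf (0.923), Cenpm (0.92), Dut (0.919) and Rmi2 (0.917), the last 4 known in DNA replication, repair or chromosome segregation. They had r of 0.86 to 0.91 without the 2 libraries furthest from the median. These genes, and those like Ezh1 below, were picked for their r over the same 16 libraries. Values on parts of those libraries are therefore no separate support. Within the aldosterone experiment r was 0.92 to 0.97, and it was 0.67 to 0.92 on the 2 diets of the low-salt experiment. The genes most like Ezh1 were the kinesin heavy chain Kif5b (0.893), the DNA damage sensor Xpc (0.87), Appl1 (0.862), LOC120103612 (0.859) and Dedd2 (0.854), at 0.80 to 0.91 without the 2 furthest libraries, 0.89 to 0.95 within the aldosterone experiment and 0.78 to 0.87 within the low-salt experiment.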

How the data were processed

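Total RNA of 24 tissue pieces was made into stranded mRNA libraries (TruSeq) and sequenced from 1 end for 50 cycles, per the labels' protocols. Salmon, Trimmomatic, MultiQC and bcl2fastq 2.19 are named in the submitters' processing notes, while settings, genome build, annotation and strand setting were not given in the sources used here. Expected counts per gene (estimated counts that need not be whole), unscaled, were deposited by the authors in 3 tables. Reads shared by near-identical genes are split by estimation.

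Expected counts were rounded to whole numbers and fitted in edgeR 4.0.16 (R 4.3.3) with filterByExpr at a minimum count of 10, TMM scaling and the quasi-likelihood F test, with batch as a term within a table, no batch term between tissues and an intercept per table and batch for the interaction. P-values were adjusted by Benjamini-Hochberg across the whole set of tested genes, and 0.05 was the threshold. Log2 fold changes carry the SE of the fit, and CPM the SD over 4 rats. Summed CPM of lists are relative to the library total. Ratios were compared by an exact permutation test over 70 arrangements. Likeness was Pearson's r of log2(CPM + 0.5) over genes at a mean of 1 CPM or more. The labels say 4 rats per treatment, so replicates are taken as rats. Every pair of libraries within a group differed by more than sampling noise.

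The members and gene lists were chosen with earlier results of these data known. By the rule for named genes, all 8 members are named in every comparison; of the other lists, up to 3 genes per direction with the smallest p among those passing, or, with aldosterone, up to 3 per list with the largest change at 1 CPM or more; and Mki67 and Cdk1. Alternatives were the DESeq2 1.42.0 test, DESeq2 size factors, upper quartile scaling, no filter, the replicate number as a block, leaving the batch term out, a minimum of 1 CPM in 4 libraries, each batch alone and each library left out. In ventricle, the deviations of same-numbered libraries of both diets had r of 0.19, 0.21, 0.23 and 0.16. Only replicate 1 was most like the library of its own number, so no pairing is taken from these values. With the replicate block 0 genes were called there, and the Ezh2 to Ezh1 ratio differed by -0.08. Recovery of known changes was checked on simulated counts. Of 1.5-fold changes, 37.3% were recovered for low salt in inner medulla, 43.3% in ventricle and 16.4% for the interaction. Of 2-fold changes, 76.1%, 80.6% and 58.2% were recovered in the same order. A small change of a member could therefore be missed. Promoter windows come from RefSeq (GRCr8), and all 36856 symbols occur in its gene table.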

Additional observations from a re-analysis of the deposited data

Results flagged for a closer look

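Of 54 groups of 4 values examined, 3 held a library whose gap to its nearest neighbour passed Dixon's critical value, where chance gives about 1 in 20. Aldosterone replicate 2 had an Ezh1 level of 239 CPM, above 223 to 226 CPM in the other 3 rats and below every control. Control replicate 3 of the aldosterone experiment had a Suz12 level of 87.8 CPM, below 91.6 to 92.0 CPM in the other 3. Inner medulla low-salt replicate 1 had an Rbbp7 level of 263 CPM, above 217 to 225 CPM in the other 3 rats on that diet.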

How the results depend on the processing

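The catalytic pair kept its directions with aldosterone in every alternative run, with Ezh2 at 0.84 to 0.97 and Ezh1 at -0.48 to -0.41 when 1 library was left out. The counts of genes called depended most on the setting. With aldosterone DESeq2 called 373, no filter 4, and leaving out a library gave 0 to 2 (2 without aldosterone replicate 4). In inner medulla on low salt DESeq2 called 1695, no batch term 165, the replicate block 52, and leaving out a library gave 2 to 423. In ventricle DESeq2 called 291, no filter 85, no batch term 1, the replicate block 0, and leaving out a library 1 to 8. For the tissue difference of the low-salt response DESeq2 called 834, no batch term 14, the replicate block 16, and leaving out a library 11 to 194, and DESeq2 called 1 member. The cause was not tested. In inner medulla the same-number r was -0.04 to 0.38 over both inner medulla comparisons, and no pairing is taken from it either.

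Between tissues the ratio difference of -3.10 had an exact permutation p of 0.0556 with labels permuted within batch and of 0.125 with the replicate block, each the smallest that scheme allows. No other call on the members or the ratio changed with the block. The ratio in ventricle turned from -0.64 in batch 1 to 0.48 in batch 2, and leaving out a library gave -0.26 to 0.11 there and -0.06 to 0.22 in inner medulla. Upper quartile scaling gave -0.01 for Eed in ventricle and 0.06 for Suz12 between tissues. Leaving out a library turned the sign of small log2 fold changes: Jarid2 (-0.04 to 0.03), Rbbp4 (-0.04 to 0.01) and Rbbp7 (-0.03 to 0.18) with aldosterone, Ezh2 (-0.14 to 0.04), Eed (-0.05 to 0.06), Rbbp4 (-0.04 to 0.08) and Cdk1 (-0.46 to 0.11) in inner medulla on low salt, Ezh2 (-0.05 to 0.24), Eed (-0.07 to 0.05), Jarid2 (-0.07 to 0.11) and Mki67 (-1.04 to 0.12) in ventricle, and Eed (-0.05 to 0.08) and Rbbp4 (-0.07 to 0.05) in the tissue difference of the response. None of these small values had passed a test. Ezh2 and Phf19 had as few as 139 and 43 counts in a library, so counting error adds to their spread.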
